A study of Mus musculus with 12 samples.

Results

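The cerebral cortex of 5 × FAD mice was compared with that of wild-type (WT) mice over non-coding transcripts, whose counts were added up gene by gene. The members of this comparison are 6 of the 12 libraries of the series: WT 1, WT 2 and WT 3, and 5 × FAD 1, 5 × FAD 2 and 5 × FAD 3, each from the cortex of a mouse aged 7 months on the C57BL/6J background. The 5 × FAD strain expresses mutant human transgenes of familial Alzheimer's disease, APP among them, placed under the neuronal Thy1 promoter, while the WT mice carry no transgene. The other 6 libraries, 3 WT and 3 5 × FAD, are from the hippocampus and are used below only for comparison. The features compared are 20746 sums on the autosomes and among assembled loci, made from 45438 transcripts: 18947 are sums over the transcripts of an annotated gene and 1799 are sums over the transcripts of a locus assembled from reads, named MSTRG. Of these, 11014 passed the filter on low counts and were tested. Assembled loci carry no position here, so those on chromosomes X or Y could not be taken out as the annotated genes there were.

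Amyloid-β peptide is cut from the amyloid precursor protein by β- and γ-secretase, and it accumulates in plaques in the 5 × FAD brain. Microglia, the resident macrophages of the brain, gather around plaques and switch on a program of phagocytic and lipid-handling genes that depends on the receptor TREM2, and interferon-responsive and complement genes are known to be active in the same tissue. A gene that encodes a protein also gives rise to transcripts that do not: retained-intron transcripts keep an intron in place, and processed transcripts are spliced but have no annotated open reading frame. The table analysed here holds mostly such transcripts, so a sum named after a protein-coding gene is the count of its non-coding transcripts and not of its mRNA. Many of them overlap coding exons of the same gene, and reads of the mRNA over these exons were not separated from reads of the transcript.

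The cortex libraries held 3517967 to 4552792 counts each. Assembled transcripts took 33.2 to 39.1% of these and Malat1 7.04 to 7.77%. Libraries are named here by their labels, and 2 checks bear on how the 5 × FAD group is read. The first is sex-linked RNA. Xist, which coats the silenced X chromosome in females, was counted 46630 times in 5 × FAD 1 and 31975 times in 5 × FAD 2, but 6 times in 5 × FAD 3 and between 4 and 12 times in WT, although the series describes both groups as holding females and a male. The second is Thy1 (chromosome 9, 44043384 to 44048579 on GRCm38), the gene whose promoter drives the transgenes. Its sum was 169, 202 and 161 for WT against 562, 467 and 157 for 5 × FAD. The library labelled 5 × FAD 3 was therefore at the WT level for both measures, while the other 2 libraries of its group were apart from WT. In the hippocampus the Thy1 sum had the same arrangement, 140, 144 and 139 for WT against 423, 621 and 158 for 5 × FAD. Sex and genotype cannot be told apart in 5 × FAD 1 and 5 × FAD 2, since no WT library had more than 12 Xist counts, and results below are given also for 5 × FAD 3 alone against WT and for the group without it. App had no sum to analyse here. Of the 20 markers of cortical projection neurons, 10 had a sum tested. Among them was Slc17a7, the vesicular glutamate transporter, with a mean of 336 CPM. CPM are counts scaled to a common library size by TMM, edgeR's trimmed mean of M values. The 2 hippocampal markers tested summed to 33.2 to 56.9 CPM in every cortex library. These values were not set against the hippocampus libraries, so they do not tell the 2 regions apart.

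Over all sums, the 2 genotypes differed little. Tested by quasi-likelihood in edgeR, with p-values adjusted over the 11014 sums after Benjamini and Hochberg, 3 sums passed at an adjusted p under 0.05, which is 0.0272% of those tested: 2 were higher in 5 × FAD and 1 was lower. Before adjustment, 395 sums (3.59%) were higher and 350 (3.18%) lower at p under 0.05. Without 5 × FAD 3 these were 349 and 321 of 11004 sums. For fits without another library they are not given here, so counts of list members in those fits have no background beside them. The groups did not overlap, each 5 × FAD library being above each WT library, in 737 sums (6.69%), and the reverse held in 718 (6.52%). The screen of the study, an unadjusted p under 0.05 with a change of at least 1 on the log2 scale, passed 270 sums (2.45%), of which 161 were higher and 109 lower. The median log2 fold change over all sums was 0.0031. DESeq2 called 50 sums, of which 22 were higher, and the 3 sums of edgeR were among them. On simulated gene sums DESeq2 made 29 false calls among 153, and edgeR 6 among 97, so the added calls are less sure.

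The gene with the largest called increase was Filip1, whose protein binds filamin A and acts in the migration of neurons. Its sum rests on 1 processed transcript (ENSMUST00000172740, chromosome 9, 79815057 to 79830998), of whose 3775 bases 3013 lie in coding exons of Filip1. Libraries WT 1 to WT 3 held 2, 2 and 0 counts of it, and 5 × FAD 1 to 5 × FAD 3 held 86, 155 and 115. All 3 WT libraries were near 0 and all 3 5 × FAD libraries far above them. The mean was 0.313 ± 0.272 CPM in WT and 30.1 ± 11.8 CPM in 5 × FAD (SD, n = 3), and the log2 fold change was 6.37 (SE 0.59, adjusted p = 0.0457 from edgeR). The value was about as large in 5 × FAD 3 alone (6.23) and without it (6.43), although the adjusted p was then 0.121 and 0.0558. The call was lost when any library other than 5 × FAD 1 was left out, the adjusted p then reaching 0.314 at most (without WT 1), and with assembled loci left out it was 0.09999. In the hippocampus the transcript had 0 counts in all 6 libraries, where 3 counts is the smallest amount taken as detected, so no genotype difference could be measured there.

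The other 2 called sums are assembled loci. MSTRG.17500 was counted 618, 770 and 618 times in WT against 2035, 1894 and 2160 times in 5 × FAD, means of 169 ± 16.1 and 503 ± 28.7 CPM (SD, n = 3), and a log2 fold change of 1.57 (SE 0.13, adjusted p = 0.0365). The rise came from one of its transcripts: MSTRG.17500.2 was at 0 throughout WT and reached 1986, 1836 and 2122 counts in 5 × FAD, while MSTRG.17500.1 went from 618, 770 and 618 down to 49, 58 and 38. The 2 transcripts of this locus thus changed in opposite directions, and the sum moved by less than either. The sum rose in the hippocampus as well, where WT counts of 542, 593 and 491 compared with 5 × FAD counts of 1321, 1329 and 1594 (log2 fold change 1.56, SE 0.14, adjusted p = 0.00247 in the fit of all 12 libraries). MSTRG.8598, a locus with 1 transcript, went the other way: 2873, 3145 and 2030 counts in WT and 0 in all 3 5 × FAD libraries, at least 899-fold lower when 3 counts per library is taken as the floor (adjusted p = 0.00103). Its presence did not follow genotype in the hippocampus, where it gave 2336, 0 and 0 counts in the WT libraries against 0, 1285 and 1216 in the 5 × FAD ones. With all 12 libraries in one fit the cortex difference of MSTRG.8598 had an adjusted p of 0.670, while the call held whichever cortex library was left out. The call of MSTRG.17500 was lost without WT 1, WT 2 or any of the 5 × FAD libraries, with adjusted p-values from 0.0558 to 0.212 and log2 fold changes from 1.49 to 1.61.

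**Figure D1:**
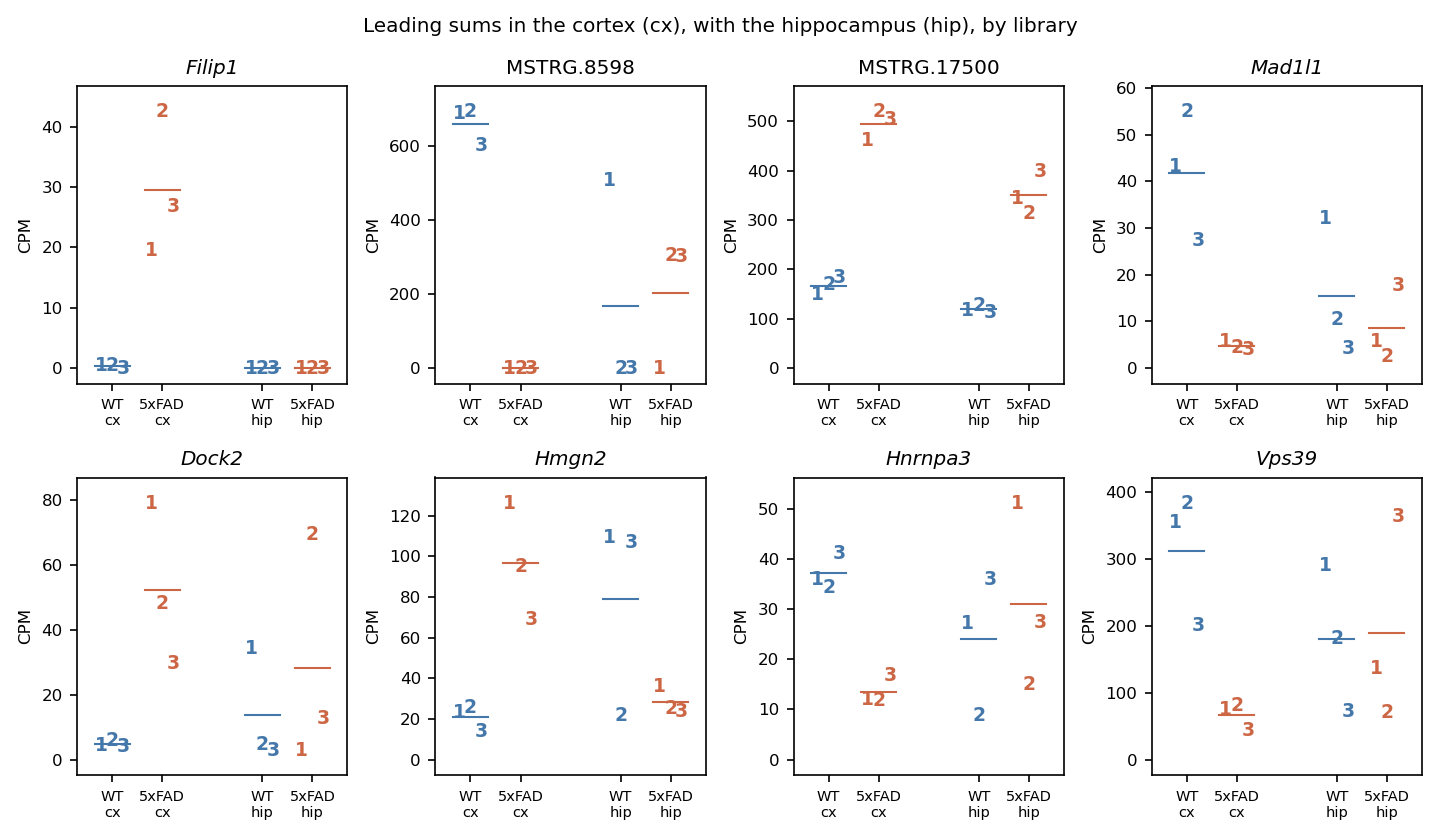
CPM of 8 sums in each library (number = replicate, line = group mean) in the cortex (cx) and the hippocampus (hip), WT in blue and 5 × FAD in orange. The cortex groups are apart in all 8 panels, whereas in the hippocampus only MSTRG.17500 has its groups apart in the direction of the cortex.

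Below the 3 calls, the annotated genes with the smallest p-values were named by a fixed rule, and none of those that follow passed the adjusted threshold. The rule took only sums with cortex groups apart, and the hippocampus libraries had no part in it. Among the higher ones, Dock2 encodes an activator of the GTPase Rac in blood-derived cells and microglia. Its sum had WT counts of 18, 27 and 14 and 5 × FAD counts of 349, 176 and 128, a log2 fold change of 3.43 (SE 0.41, adjusted p = 0.120), and every 5 × FAD library was above every WT library. It was 2.62 in 5 × FAD 3 alone and 3.71 without it, the latter with an adjusted p of 0.0377. Most of the difference lay in 1 retained-intron transcript, with 10, 15 and 4 counts over the WT libraries and 327, 158 and 121 over those of 5 × FAD. In the hippocampus the same sum was counted 158, 22 and 12 times in WT against 11, 294 and 51 times in 5 × FAD, and there the groups overlapped.

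Hmgn2, a protein that binds nucleosomes, gave 96, 116 and 47 counts in the WT libraries against 556, 346 and 296 in the 5 × FAD ones (log2 fold change 2.21, SE 0.31, adjusted p = 0.260). Again 1 retained-intron transcript carried it, with 30, 41 and 20 counts over the WT libraries and 458, 279 and 222 over those of 5 × FAD. Other higher sums were Mthfs, an enzyme of folate metabolism (1.04), Aff1, a scaffold of transcription elongation (1.23), Rhbdf1, a rhomboid-like protein of the secretory pathway (1.26), Ano3, an anoctamin (2.49), and Top2a, the DNA topoisomerase of dividing cells (5.40). Top2a stood on few counts, 1, 0 and 0 in WT against 31, 15 and 13 in 5 × FAD. Mthfs and Top2a had all 5 × FAD libraries above WT in the hippocampus too. Mthfs was there at 34.9, 39.3 and 46.7 CPM in WT against 53.1, 63.8 and 75.4 in 5 × FAD. Top2a was at 0, 0.430 and 1.15 CPM against 1.81, 4.02 and 1.75. For Aff1, Rhbdf1 and Ano3 the hippocampus groups overlapped.

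Among the lower sums, Mad1l1, a protein of the mitotic spindle checkpoint, had WT counts of 180, 249 and 92 and 5 × FAD counts of 25, 16 and 17, a log2 fold change of -3.15 (SE 0.33, adjusted p = 0.0767). One processed transcript of 7 exons gave 174, 229 and 80 of the WT counts and 11, 0 and 0 of the 5 × FAD counts, while the other transcripts of the gene stayed under 16 counts in every library. Vps39, a subunit of the complex that fuses late endosomes with lysosomes, had WT counts of 1474, 1734 and 672 and 5 × FAD counts of 331, 296 and 186 (-2.23, SE 0.34, adjusted p = 0.260). Here, too, 1 transcript of 8 made the difference, ENSMUST00000129857, with 1167, 1446 and 483 counts over the WT libraries and 33, 105 and 8 over those of 5 × FAD. The next transcript of Vps39, with a retained intron, was counted 158, 123 and 60 times in WT against 130, 72 and 52 times in 5 × FAD. Hnrnpa3, an RNA-binding protein, was at 150, 155 and 138 counts against 53, 43 and 72 (-1.44, SE 0.21, adjusted p = 0.260).

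Unc93b1, which carries Toll-like receptors to endosomes, gave 197, 277 and 173 counts in the WT libraries against 79, 59 and 36 in the 5 × FAD ones (-1.91, SE 0.30, adjusted p = 0.260), whereas hippocampus libraries of WT held 40 to 60 counts and those of 5 × FAD 38 to 60. The lower group also held Nit1, an amidase (-1.13), Grsf1, a protein of mitochondrial RNA granules (-2.33), Mgat5b, a glycosyltransferase (-1.31), Igsf8, a membrane protein of the immunoglobulin family (-1.46), and the bidirectional-promoter lncRNA BC051226 (-1.61). Lyrm1 had WT counts of 14, 29 and 24 and none in 5 × FAD, at least 7.62-fold lower against a floor of 3 counts per library. Of these lower sums, Grsf1 also had its groups apart in the hippocampus, with 48, 64 and 57 counts over the WT libraries and 24, 17 and 14 over those of 5 × FAD.

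Among genes without a common name, M5C1000I18Rik, a lincRNA, had WT counts of 208, 207 and 148 and 5 × FAD counts of 108, 87 and 77 (log2 fold change -1.07, SE 0.19, adjusted p = 0.342). It was lower in the hippocampus as well, at 421, 499 and 350 counts against 183, 217 and 189. The antisense RNA Gm15545 was higher in the cortex (23, 20 and 13 counts against 48, 42 and 52) and in the hippocampus (22, 20 and 16 against 27, 40 and 64). Gm10451, a lincRNA, was lower in both regions, with log2 fold changes of -1.20 and -1.49. For Gm45441 (-1.12), Gm43065 (2.64) and Gm49378 (4.92) the cortex groups were apart, as the naming rule required, and the hippocampus groups overlapped. Gm49378 had 21, 1 and 21 counts in WT cortex against 308, 233 and 873 in 5 × FAD cortex, and between 36 and 842 in the hippocampus libraries. Of the assembled loci below the calls, MSTRG.11359 and MSTRG.14838 had 0 counts in every WT cortex library, and 26, 40 and 63 and 30, 39 and 82 counts in 5 × FAD. Both were near 0 in WT hippocampus and between 27 and 93 counts in every 5 × FAD hippocampus library, so their 12 libraries divided by genotype. MSTRG.18699 was lower, at 2883, 5635 and 5387 counts for WT against 1761, 731 and 884 for 5 × FAD (-2.12, adjusted p = 0.378).

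The complement, interferon and antigen-presentation list was higher in 5 × FAD cortex at the median. Of its 58 genes, 38 have a sum and 25 were tested, of which 6 were higher and 0 lower at an unadjusted p under 0.05, against 3.59% and 3.18% of all sums. In 6 members (C4a, Nlrc5, H2-Q7, Ifi27, H2-K1 and Irf7) all 5 × FAD libraries were above all WT libraries, and in 0 below, where 6.69% and 6.52% of all sums were. The median log2 fold change was 0.58, against 0.0031 over all sums, and 20 of the 25 were above 0. By library, the median of the log2 ratio to the WT mean was 0.60 in 5 × FAD 1, 0.53 in 5 × FAD 2 and 0.11 in 5 × FAD 3, with WT between -0.08 and 0.05. Taking 5 × FAD 3 alone, the fitted median was 0.02. Without it 10 members were higher at an unadjusted p under 0.05, where 349 of all 11004 sums of that fit were. Without 5 × FAD 1 the median was 0.36 and 3 were higher.

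C4a had the smallest p-value of the list. It is the neighbour and near-copy of the complement gene C4b, and its transcripts here have no annotated coding sequence. Its sum was counted 121, 146 and 86 times in WT against 420, 262 and 354 times in 5 × FAD, means of 29.3 ± 3.67 and 84.6 ± 12.2 CPM (SD, n = 3) and a log2 fold change of 1.53 (SE 0.18, adjusted p = 0.120). It was higher in each 5 × FAD library, 5 × FAD 3 included (1.51 alone, 1.53 without it). In the hippocampus it gave 147, 131 and 147 counts in the WT libraries against 439, 412 and 318 in the 5 × FAD ones, where the difference passed the test (1.63, SE 0.18, adjusted p = 0.0115 in the fit of all 12 libraries). With all 12 libraries in one fit, C4a was also among the 7 sums called in the cortex.

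Which C4a transcript held the counts varied among the mice. The full-length processed transcript ENSMUST00000160679 (41 exons, chromosome 17, 34809092 to 34823464) had WT counts of 104, 115 and 81 and 5 × FAD counts of 381, 113 and 59. A second one, ENSMUST00000160528 (34 exons, the same 5′ end), had 0 in each WT library and 27, 142 and 214 in 5 × FAD. C4b itself is represented here by a short retained-intron transcript, with 16, 6 and 17 counts over the WT libraries and 49, 15 and 45 over those of 5 × FAD (1.37, SE 0.57, adjusted p = 0.731), and its mRNA was not analysed here. The 2 genes can be told apart only in part: of the 5272 windows of 100 bases in the full-length C4a transcript, 16.5% also occur, letter for letter, in a C4b transcript, so reads in these windows could come from either gene. The stretches below, from the GENCODE M21 transcripts, show both cases. The first is a window that C4a (chr17:34823092-34823191, GRCm38, minus strand) and C4b (chr17:34743513-34743612, minus strand) share:
C4a and C4b, shared: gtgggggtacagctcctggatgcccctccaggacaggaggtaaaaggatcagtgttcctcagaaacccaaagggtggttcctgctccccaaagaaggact
The second is a stretch of 120 bases in which they differ at 10 positions, printed in capitals, from C4a (chr17:34816392-34816511, minus strand) and the coding sequence of C4b (chr17:34735736-34735855, minus strand):
C4a: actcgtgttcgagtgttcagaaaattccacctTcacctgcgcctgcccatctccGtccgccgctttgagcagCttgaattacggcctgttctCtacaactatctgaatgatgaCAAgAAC
C4b: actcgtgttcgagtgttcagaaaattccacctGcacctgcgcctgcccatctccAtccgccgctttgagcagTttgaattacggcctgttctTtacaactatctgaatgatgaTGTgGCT
How the deposited counts divide reads between such windows is not given in the sources used here.

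Nlrc5, the transactivator of MHC class I genes, was at 0 counts in each WT library and at 18, 10 and 11 in 5 × FAD, at least 4.15-fold higher against a floor of 3 counts per library (adjusted p = 0.331). In the hippocampus it was counted 2, 2 and 2 times in WT against 8, 15 and 12 times in 5 × FAD. H2-Q7, a non-classical class I molecule, gave 42, 35 and 34 counts in the WT libraries against 187, 60 and 88 in the 5 × FAD ones (1.52, SE 0.39, adjusted p = 0.696), and H2-K1, a classical one, had 25, 16 and 23 against 55, 38 and 33 (0.92, SE 0.34, adjusted p = 0.718). The class I genes are near-copies of one another, so counts may be divided among them. Members of the same list that did not pass at an unadjusted p under 0.05 included Tap1 (0.64), Irf7 (0.69) and Stat3 (0.33), while H2-T23 (0.04) and Oasl2 (0.07) were near 0.

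**Figure D2:**
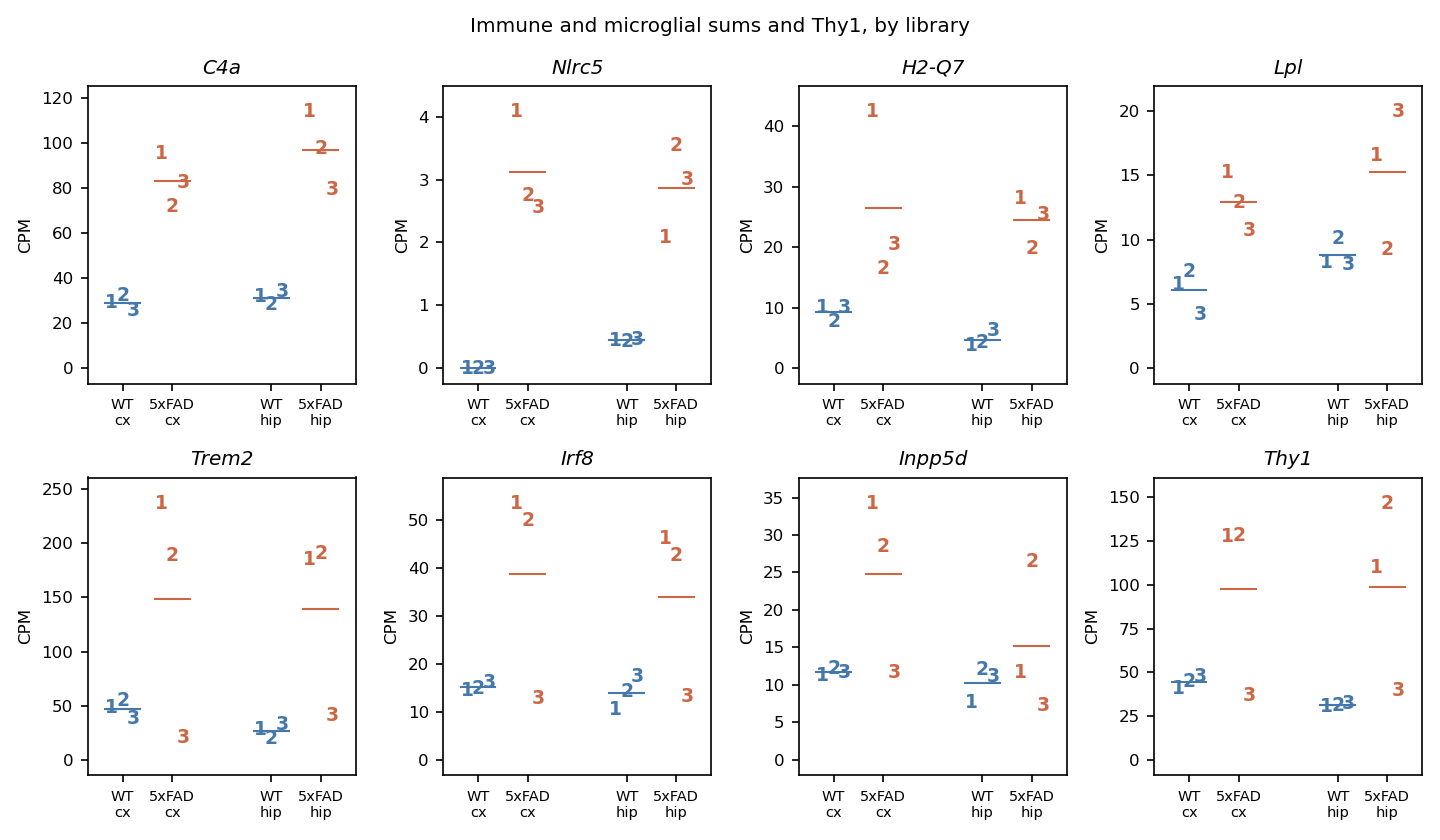
CPM of 8 sums in each library (number = replicate, line = group mean) in the cortex (cx) and hippocampus (hip), WT in blue and 5 × FAD in orange. C4a, Nlrc5 and H2-Q7 are above WT in all 3 5 × FAD libraries of both regions, whereas Trem2, Irf8, Inpp5d and Thy1 are above WT in 5 × FAD 1 and 5 × FAD 2 of the cortex and not in 5 × FAD 3.

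The microglia list behaved in a similar way, with a clearer division between the 5 × FAD mice. Of 65 genes, 36 have a sum and 20 were tested, of which 6 were higher and 1, Unc93b1, lower at an unadjusted p under 0.05, against 3.59% and 3.18% of all sums. By edgeR, 0 were called after adjustment. The median log2 fold change was 0.60, and 18 of the 20 were above 0. By library it was 0.84 in 5 × FAD 1, 0.57 in 5 × FAD 2 and 0.09 in 5 × FAD 3, with WT between -0.13 and 0.17. In 5 × FAD 3 alone the fitted median was 0.09, and without that library it was 0.81. Without it 8 members were higher at an unadjusted p under 0.05, where 349 of all 11004 sums of that fit were. The count was 1 without WT 1, 5 × FAD 1 or 5 × FAD 2 and 2 without WT 2 or WT 3, while the median stayed between 0.42 and 0.81. A change in RNA per cell and a change in the number of microglia cannot be told apart in these bulk samples. Of the 14 markers that define microglia, 2 were tested, Trem2 among them, and P2ry12, Tmem119, Cx3cr1 and Csf1r were among those not tested.

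Trem2, the lipid-sensing receptor of microglia and a risk gene of Alzheimer's disease, had WT counts of 202, 248 and 129 and 5 × FAD counts of 1046, 688 and 87. The counts of 5 × FAD 1 and 5 × FAD 2 were far above WT and those of 5 × FAD 3 below it. Over all 3 the log2 fold change was 1.66 (SE 0.75, adjusted p = 0.740). It was 2.17 without 5 × FAD 3 (adjusted p = 0.0558) and -1.22 in 5 × FAD 3 alone (adjusted p = 0.466). In the hippocampus Trem2 was counted 129, 91 and 142 times in WT against 714, 809 and 164 times in 5 × FAD, again with the library labelled 5 × FAD 3 near WT. Nearly all Trem2 counts fell on 1 retained-intron transcript of 4784 bases, which covers 692 bases of coding exons.

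Irf8, a transcription factor of macrophages, had WT counts of 60, 67 and 54 and 5 × FAD counts of 236, 182 and 55 (1.37, SE 0.49, adjusted p = 0.718), and -0.23 in 5 × FAD 3 alone. Inpp5d, the phosphatase SHIP1, gave 47, 55 and 39 counts in the WT libraries against 151, 104 and 50 in the 5 × FAD ones (1.09, SE 0.39, adjusted p = 0.716), and Ptprc, the leukocyte antigen CD45, had 156, 182 and 106 against 479, 273 and 167 (1.03, SE 0.36, adjusted p = 0.710). In Irf8, Inpp5d and Ptprc the groups overlapped through 5 × FAD 3. In Lpl, lipoprotein lipase, they did not: 27, 34 and 14 counts for WT against 67, 47 and 46 for 5 × FAD (1.09, SE 0.30, adjusted p = 0.710), with 0.81 in 5 × FAD 3 alone. Cd33, an inhibitory receptor of myeloid cells, was also apart (0.80, SE 0.33), with 0.22 in 5 × FAD 3 alone. Apoe, Ctsd, Cd63 and Mertk had log2 fold changes between 0.06 and 0.24. The part of sex and of the Thy1 level, which divide the 5 × FAD libraries in the same way, was not tested.

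**Figure D3:**
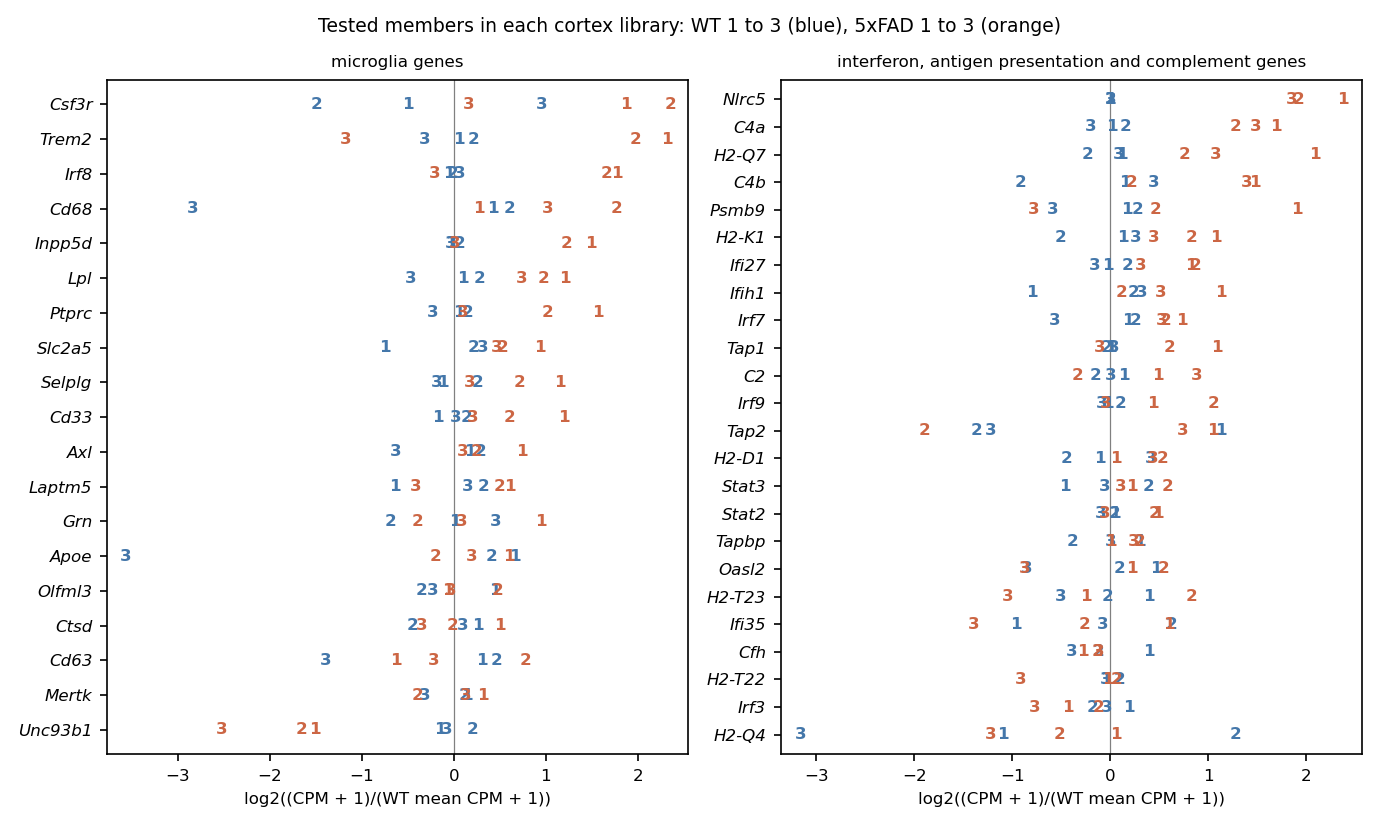
Log2 ratio of CPM + 1 to the WT mean for tested members of the microglia list (left) and the interferon, antigen-presentation and complement list (right) in each cortex library (number = replicate), ordered by fold change. On the left the orange 3 of Trem2, Irf8, Inpp5d and Ptprc sits with or below WT, and on the right C4a, Nlrc5 and H2-Q7 have all 3 orange numbers to the right of the blue ones.

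The activity-dependent immediate early genes, which neurons transcribe within minutes of firing, had the lowest median of the functional lists. Of 40 genes, 14 have a sum and 11 were tested: 0 were higher and 4 lower at an unadjusted p under 0.05, against 3.59% and 3.18% of all sums, and the median log2 fold change was -0.28. Fos, a subunit of the transcription factor AP-1, had WT counts of 237, 154 and 119 and 5 × FAD counts of 86, 73 and 113 (-0.93, SE 0.27, adjusted p = 0.710). Fosb, of the same family, was counted 129, 165 and 139 times in WT against 73, 73 and 106 times in 5 × FAD (-0.82, SE 0.22, adjusted p = 0.704). Both had all 5 × FAD libraries below WT after scaling. Dusp1, a phosphatase that switches off MAP kinases, had 626, 481 and 545 counts against 494, 278 and 311 (-0.67, SE 0.24), and Gadd45b, a growth arrest gene, had 16, 25 and 19 against 12, 1 and 8 (-1.56, SE 0.61). Nr4a2 (0.67), Crem (0.74) and Gadd45g (0.39) had positive values with an unadjusted p above 0.2. The median turned to 0.05 without WT 3, was -0.46 without WT 1 and -0.10 without 5 × FAD 1, and 2 members were lower without WT 1, WT 3 or 5 × FAD 3. In the hippocampus the list had a median of 0.16, with Fos at 0.46 and Fosb at 0.23.

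Oligodendrocyte and myelin genes had 18 members tested of 22 with a sum, of which 4 were higher and 0 lower at an unadjusted p under 0.05, against 3.59% and 3.18% of all sums, with a median of 0.19. The 4 were Bcas1, a gene of newly myelinating cells (23, 29 and 22 counts against 46, 43 and 76; 1.12, SE 0.29), Aspa, which cleaves N-acetylaspartate (0.55, SE 0.19), Cnp, a myelin enzyme (0.56, SE 0.22), and C4b, which stands on this list as well. Mbp (0.55) and Mag (0.22) did not pass, and Ptgds (0.02) and Nfasc (-0.01) were near 0. WT 3 was the lowest library of this list, at a median of -0.30 against the WT mean, and the median was 0.50 without WT 1 and 0.09 without 5 × FAD 2. The count was 2 without WT 2 or WT 3 and 1 without 5 × FAD 3. Summed CPM of the 4 oligodendrocyte markers tested was 376, 324 and 221 for WT against 401, 448 and 456 for 5 × FAD, and Mog and Opalin were among those not tested.

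Of 29 glutamate receptor and postsynaptic density genes tested, 1 was higher and 4 lower at an unadjusted p under 0.05, against 3.59% and 3.18% of all sums, and the median was -0.12. The 10 tested markers of cortical projection neurons, which include Camk2a, had a median of -0.19, with 0 higher and 2 lower, Slc17a7 (-0.47) and Camk2a. Their summed CPM was 1374, 725 and 790 for WT against 699, 594 and 547 for 5 × FAD, and their part in the values of the list was not tested. Camk2a, the kinase of the postsynaptic density, gave 2992, 600 and 566 counts in the WT libraries against 580, 441 and 418 in the 5 × FAD ones (-1.54, SE 0.63, adjusted p = 0.731), and without WT 1 the value was -0.36. Shank3, a scaffold of the same structure, had 341, 368 and 160 counts against 124, 97 and 210 (-1.02, SE 0.32), and the groups overlapped. Shank2 (-0.55) and Nrgn, which binds calmodulin (-1.22), were the other lower members. Dlg2, which anchors NMDA receptors, was higher (0.81, SE 0.30), from 1547, 3857 and 2721 counts to 4509, 4343 and 5664. The count of lower members was 0 without WT 1, 2 without WT 2 and 1 when any of the 5 × FAD libraries was left out. Gria2 (-0.06), Camk2d (-0.03) and Grin3a (0.03) were near 0.

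Alzheimer risk genes had 18 members tested of 40, with 3 higher and 1 lower at an unadjusted p under 0.05, against 3.59% and 3.18% of all sums, and a median of 0.30. Picalm, which acts in clathrin-mediated uptake, had WT counts of 584, 732 and 535 and 5 × FAD counts of 822, 749 and 888 (0.38, SE 0.13, adjusted p = 0.710), and Inpp5d and Cd33, given above, were the other higher ones. Fermt2, an activator of integrins, was the lower one (-0.83, SE 0.34). The count of higher members was 0 without 5 × FAD 2 and 1 without WT 1, WT 2, WT 3 or 5 × FAD 1. Clu (0.09), Mapt (-0.06), Sorl1 (-0.03) and Mef2c (-0.01) were near 0. Of the 22 genes of secretases and amyloid processing tested, 0 were higher and 2 lower, against the same shares of all sums: Gga3, an adaptor that sorts β-secretase (536, 544 and 443 counts against 362, 265 and 348; -0.68, SE 0.13, adjusted p = 0.422), and Apba2, an adaptor that binds the amyloid precursor protein (462, 421 and 301 against 300, 45 and 56; -1.64, SE 0.65). Bace1 (0.28), Adam10 (0.38), Ncstn (-0.09) and Psen2 (-0.08) did not pass at an unadjusted p under 0.05.

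In the other functional lists few members passed an unadjusted p of 0.05, where 3.59% and 3.18% of all sums did. None of the 72 genes of histone modification and DNA methylation and none of the 25 of GABA signalling passed at that level in either direction, nor did any of the 21 neurexins, neuroligins and their partners. Of 53 respiratory chain genes 2 were higher and 2 lower, of 52 lysosome and autophagy genes 4 and 2, of 50 SR protein and hnRNP genes 1 and 1, of 37 ion channel genes 1 and 2, of 34 presynaptic genes 1 and 1, of 34 heat shock genes 0 and 1, of 36 ubiquitin-specific proteases 2 and 0, of 21 circadian clock genes 2 and 1, of 21 astrocyte genes 1 and 1, and of 13 endothelial genes 1 and 0. Their medians lay between -0.13 and 0.09. Markers of other cell types that a cortex dissection could hold were few among the sums: 6 of 10 striatal markers had a median of 0.51, with the sum of their CPM at 242 to 399 in WT and 515 to 547 in 5 × FAD, and Ppp1r1b, the striatal phosphatase inhibitor, made up most of it. The 3 tested markers of choroid plexus and ependyma summed to 6.71 to 16.1 CPM in every library. Blood markers summed to 37.9 to 46.3 CPM in WT and 116, 81.3 and 44.4 in 5 × FAD, almost wholly Ptprc, and Hba-a1 and Hba-a2 had means of 2.46 and 3.06 CPM. The part of striatal tissue in the results was not tested.

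**Figure D4:**
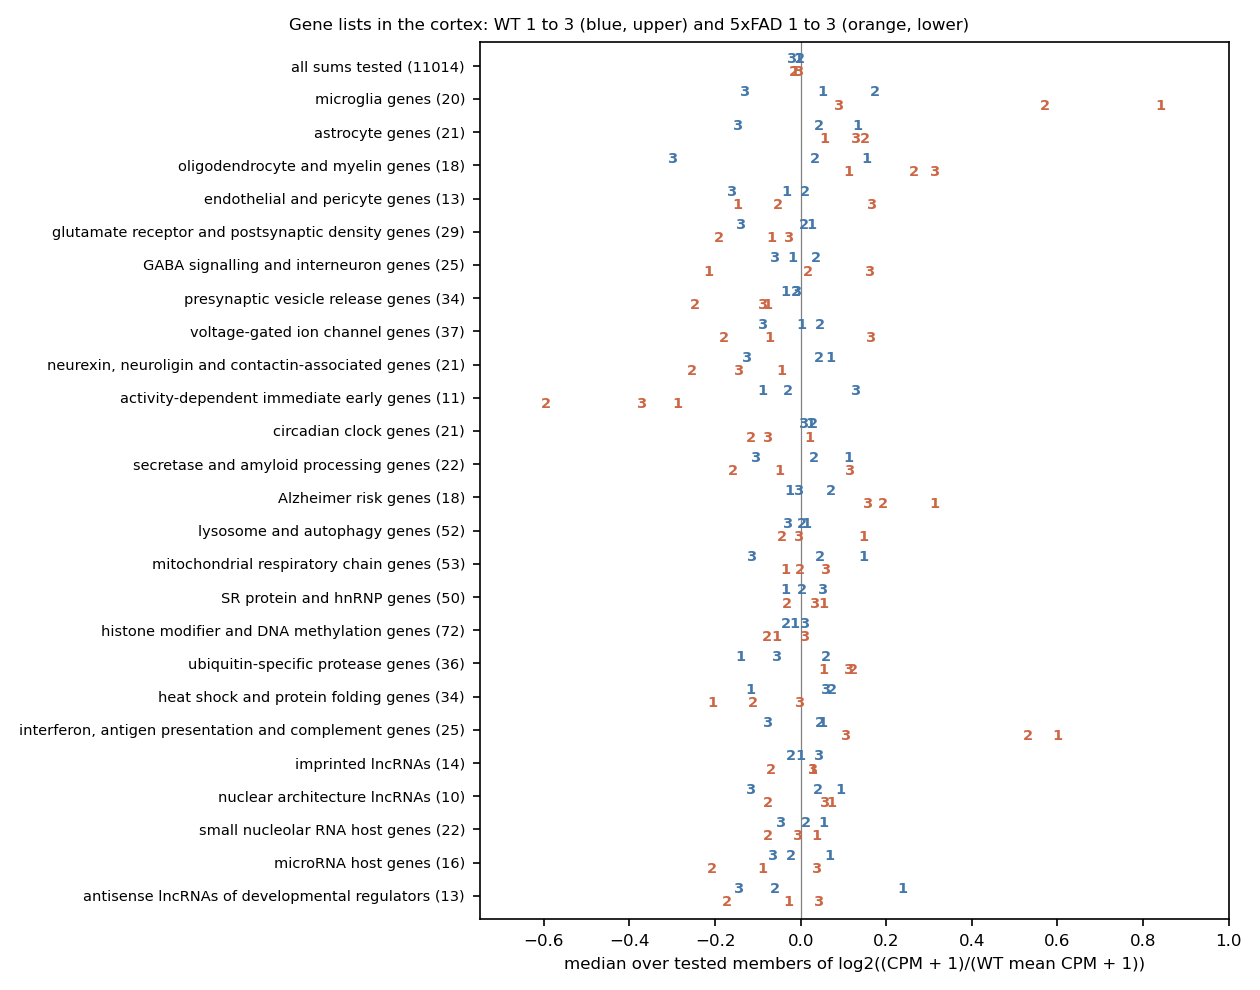
Median over tested members (number in brackets) of the log2 ratio of CPM + 1 to the WT mean, for each gene list and cortex library (number = replicate), WT in blue and 5 × FAD in orange. The microglia and interferon lists are highest in 5 × FAD 1 and 5 × FAD 2. The immediate early and the presynaptic vesicle release genes are below all 3 WT libraries in all 3 5 × FAD libraries. The interferon and Alzheimer risk lists are above all 3 WT libraries in all 3.

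Among long non-coding RNAs with known roles, no sum passed the adjusted threshold. Malat1, the nuclear speckle RNA and the most abundant sum, was counted 291084, 342973 and 264618 times in WT against 345850, 284227 and 330349 times in 5 × FAD (0.06, SE 0.13, adjusted p = 0.953). Neat1, the scaffold of paraspeckles, was at 3032, 3339 and 1874 against 4223, 3284 and 3326 counts (0.39, SE 0.17, adjusted p = 0.731), and after scaling its groups did not overlap. Miat, another nuclear lncRNA of neurons, had a log2 fold change of -0.68 (SE 0.28, adjusted p = 0.731), with 12913 counts in WT 2 and between 3823 and 5924 in the other 5 libraries. At an unadjusted p under 0.05, 3.59% of all sums were higher and 3.18% lower. Of 14 imprinted lncRNAs, among them Meg3 (-0.11), 0 passed at that level, as did 0 of the 22 snoRNA host genes. Of 16 microRNA host genes 1 was higher, and of 13 antisense RNAs of developmental regulators 1 was lower. In lists this short, counts of 0 or 1 do not tell the members from all sums. Of the 5 linear genes that host the circRNAs of the study's network, Dock3 was higher (459, 561 and 471 counts against 689, 610 and 751; 0.42, SE 0.14, adjusted p = 0.710). None of the 11 tested genes of that network with a qRT-PCR measurement passed at that level, and their log2 fold changes lay between -0.75 and 0.64. The study's qRT-PCR was of mRNA in the hippocampus, where it reported 13 of 16 as significantly lower in 5 × FAD. The sums here are of non-coding transcripts in the cortex, so they do not test that result.

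By gene type, the share of sums past an unadjusted p of 0.05 varied around the background. Among 7526 sums of protein-coding genes, 3.51% were higher and 3.34% lower, and among 612 lincRNAs 5.23% were higher and 3.43% lower. The 467 antisense genes had 2.57% higher and 3.21% lower, and the 1738 assembled loci 3.57% and 2.47%. Groups did not overlap in 17.3% of lincRNA sums and 12.9% of sums of protein-coding genes. The medians of these 4 types were between -0.01 and 0.01. The types differ in depth, with a median of 23.2 CPM for protein-coding genes, 7.55 for lincRNAs and 85.5 for assembled loci.

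No difference between the genotypes was found in the composition of the libraries by transcript type. Retained-intron transcripts took 35.8% ± 1.61 of the counts in WT and 35.6% ± 0.316 in 5 × FAD (SD, n = 3), and the difference was -0.23 percentage points (two-sided exact permutation test, p = 0.80). Processed transcripts took 9.64% ± 0.881 and 9.40% ± 0.380, lincRNAs 14.8% ± 0.407 and 15.0% ± 0.532, antisense RNAs 1.90% ± 0.127 and 1.90% ± 0.0152, and assembled transcripts 36.3% ± 3.07 and 36.6% ± 1.15. No type had an exact p under 0.70, the adjusted p was 1.0 for all 7 types, and 0.10 is the smallest p that 3 against 3 libraries can give. WT 3 stood out within its group, with 39.8% assembled and 34.0% retained-intron transcripts, against 33.9 and 35.3% assembled in WT 1 and WT 2.

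**Figure D5:**
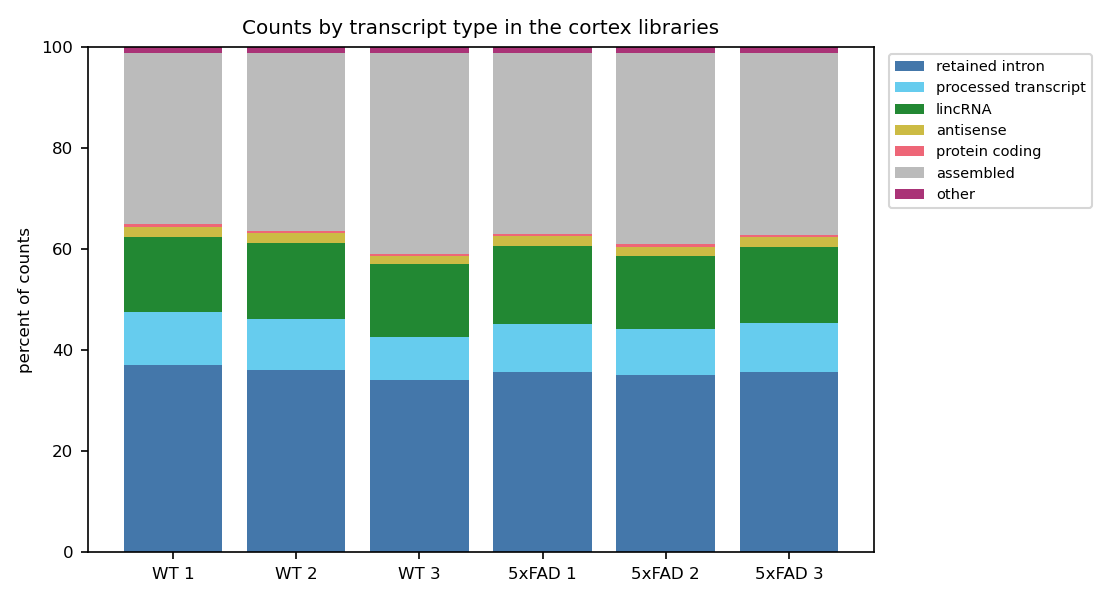
Percent of the counts of each cortex library in each transcript type, stacked to 100. Retained-intron transcripts hold 34.0 to 37.2% and assembled transcripts 33.9 to 39.8%, with no division between WT and 5 × FAD.

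Counts were also summed per gene and transcript type, which asks whether the retained-intron and the spliced transcripts of a gene differ separately. Of 12668 such sums, 2 (0.0158%) passed the adjusted threshold, the assembled MSTRG.8598 and MSTRG.17500 described above, and DESeq2 called 57. At an unadjusted p under 0.05, 3.11% of 6138 retained-intron sums were higher and 3.01% lower, and of 3210 processed-transcript sums 3.18% and 3.15%. In 1617 genes both kinds were tested. The groups were apart in the same direction for both kinds in 26 of these genes and in opposite directions in 6. Over all sums of each kind, groups were apart in 389 higher and 381 lower of the 6138 retained-intron sums. For processed transcripts these were 189 and 217 of 3210. Whether 26 and 6 depart from what unrelated kinds would give was not tested. In 1 gene, Wsb1, a part of a ubiquitin ligase, both kinds had an unadjusted p under 0.05 and opposite signs: its retained-intron transcripts gave 480, 811 and 721 counts in the WT libraries against 485, 340 and 279 in the 5 × FAD ones (-0.91), and its processed transcripts 37, 0 and 0 against 135, 110 and 79 (3.11).

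Finally, the genotype difference in the cortex was set against that in the hippocampus. The interaction was tested over 11683 sums in the 12 libraries, and 0 passed at an adjusted p under 0.05 (smallest 0.617), with 820 (7.02%) at an unadjusted p under 0.05 and 22 called by DESeq2. Of the 270 cortex sums that passed the screen, 172 had the same sign in the hippocampus. An unadjusted p under 0.05 was reached there in 55 with the same sign and in 7 with the opposite sign. Of all 11014 sums tested in the cortex, 5711 were above 0 in the hippocampus. At an unadjusted p under 0.05, 602 of these 11014 were higher there and 583 lower. Both regions were taken from each mouse according to the series, so they are not independent. Groups were apart in both regions and in the same direction in 70 higher and 105 lower sums, and in opposite directions in 47 and 49. Taken singly, groups were apart in 737 higher and 718 lower sums in the cortex, and in 848 and 942 in the hippocampus. Whether these overlaps exceed those of unrelated regions was not tested. The 3 sums with the smallest interaction p were MSTRG.5594, Unc93b1 and Hmgn2 (adjusted p = 0.617 for each). Hmgn2 was higher in 5 × FAD cortex and, in the hippocampus, had WT counts of 503, 100 and 463 and 5 × FAD counts of 139, 107 and 94. MSTRG.5594 had 215, 234 and 214 counts in WT cortex and 168, 141 and 177 in 5 × FAD cortex, and 168, 157 and 132 against 236, 195 and 238 in the hippocampus.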

How the data were processed

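Libraries of RNA from the cerebral cortex and hippocampus of WT and 5 × FAD mice were made after depletion of ribosomal RNA with a stranded kit and sequenced from both ends. The authors deposited raw counts for each transcript, in whole numbers and without scaling. The submitters' processing notes name Trimmomatic 0.36 and edgeR, and the aligner, counter and build are not given in the sources used here. Groups came from the sample labels. The series describes 3 mice per group, each giving both regions. All 12 columns were used and 0 were left out.

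Counts were summed per gene of GENCODE M21 (GRCm38) or per assembled locus. Genes on X and Y (1144 sums) and 225 Ensembl transcripts not in that release were left out. The tests on the 6 cortex libraries used edgeR 4.0.16 under R 4.3.3 (filterByExpr, TMM, glmQLFit and glmQLFTest, Benjamini-Hochberg at 0.05), and all 12 for the interaction. SE is the size of the log2 fold change divided by the square root of F. Alternatives were other scalings, filters and designs, DESeq2 1.42.0 and leaving out libraries. Library ratios used a pseudocount of 1 CPM. Intervals and floors of 3 counts cover counting error only.

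The gene lists and the members compared were chosen with earlier results of these data known. Named were called sums, up to 10 sums per direction of annotated genes (3 of unnamed or non-coding genes, 3 of assembled loci) that passed the screen with groups apart and a mean of at least 1 CPM, by smallest p, up to 3 members per list by smallest p with the most abundant one, and genes of the study. Irf8, Ifi27, H2-K1, C4b, Gadd45b, Camk2a, Nrgn, Fermt2, Wsb1 and members given as near 0 or as not passing were named after their values were seen. Results of some genes are not reported here. On simulated counts with 200 of 11014 sums changed, edgeR recovered 82% of 100 changes of 2 on the log2 scale and 9% of 100 changes of 1, with 6 false calls among 97. On the same counts DESeq2 recovered 92% and 32%, with 29 false calls among 153. The changed sums were drawn only from those with higher expected counts, so recovery for sums on few counts was not measured. Replicates differed by more than counting noise (chi-square per degree of freedom 18.2 to 24.6). Python 3.11.15, pandas 2.3.3 and scipy were used for summaries.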

Additional observations from a re-analysis of the deposited data

Results flagged for a closer look

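For 2 sums named above, the genotype groups were apart in both regions but in opposite directions, and the adjusted interaction did not pass. MSTRG.5594 was lower in 5 × FAD cortex and had a log2 fold change of 0.73 in the hippocampus. Aspa was higher in 5 × FAD cortex and had a log2 fold change of -0.45 in the hippocampus, where WT counts were 231, 222 and 195 and 5 × FAD counts 130, 182 and 111. Outside the autosomal sums, Xist had 46630 counts in 5 × FAD 1 and 31975 in 5 × FAD 2 of the cortex, above the 4 to 12 counts of the WT libraries.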

How the results depend on the processing

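The count of 3 called sums became 50 with DESeq2, 7 with all 12 libraries in one fit, 12 over transcripts without summing, 1 with at least 10 counts in every library and 0 with annotated genes only. The replicate numbers did not pair the samples (correlations of deviations -0.023, -0.039 and -0.096), and with the replicate block 0 sums were called. Leaving out 1 library gave 1 to 8 calls. The screen passed 504 sums without the filter, 152 with at least 10 counts in every library and 557 over transcripts. Gene-by-type calls went from 2 to 57 with DESeq2, 0 with the replicate block and 1 to 6 without 1 library. Interaction calls went from 0 to 22 with DESeq2 and 0 to 2 without 1 library. They were 0 with a block for each mouse. That block took the same number in both regions of a genotype as the same mouse, which was assumed. DESeq2 made 29 false calls among 153 on simulated gene sums, and it was not run on simulated gene-by-type sums or interactions.

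With 5 × FAD 1 and 5 × FAD 2 both left out, so that no library held more than 12 Xist counts, 1 sum was called and 615 passed the screen. The medians were then 0.086 for microglia, 0.023 for interferon and 0.15 for Alzheimer risk genes. Counts of members passing an unadjusted p are not given for this fit, since its 5 × FAD group holds 1 library. Directions turned for Inpp5d (-0.00053), Irf8 (-0.23), Trem2 (-1.22) and Thy1 (-0.27).

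Leaving out 1 library gave medians of 0.36 to 0.61 for interferon, 0.092 to 0.50 for oligodendrocyte, 0.25 to 0.39 for Alzheimer risk and -0.46 to 0.054 for immediate early genes, the last -0.075 with at least 10 counts in every library. The members counted were 1 to 8 for microglia, 3 to 10 for interferon, 1 to 5 for oligodendrocyte, 0 to 3 for Alzheimer risk, 0 to 4 for glutamate receptor and 2 to 4 for immediate early genes. The number of all sums passing changes between these fits as well. It is given here only without 5 × FAD 3, so a fall in members was not told apart from a general loss of power. Of 64 named sums, 31 kept direction and side of the threshold in every alternative and 4 turned in at least 1. The cause was not tested for any of these. In simulated counts with the spread and depth of these libraries, 9% of changes of 1 on the log2 scale were recovered. These changes were placed only in sums with higher expected counts. The shares of depth and of replicate spread in this were not separated.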
